A study of Mus musculus with 16 samples.

Results

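The genes described here make or receive the short-range signals that set vessel tone: prostacyclin and prostaglandin E, nitric oxide, endothelin and adrenomedullin. The group was named in advance as Ptgis, Ptgs1, Ptgs2, Ptges, Nos3, Edn1, Ednra, Ednrb, Ece1 and Adm, and its members were taken as the probes that carry one of these 10 symbols, out of 19057 genes on the array. A listed probe was found for 8 of the 10 (16 probes), and 7 had a probe above the detection filter and were tested among 11334 genes. Ptgs1 and Ednra carried no listed probe and were not analysed here. Ptgs2 had 2 probes, both not well above background on any array. The members were chosen by their levels in mutant and wild-type yolk sacs, known from earlier work on these arrays, so that comparison is given below as a description without a test.

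RNA came from C57BL/6J mouse embryos and yolk sacs collected at 9.5 days post coitum and hybridised to Illumina MouseWG-6 v2 bead arrays. Crosses of heterozygotes for rudhira (Bcas3) gave wild-type (+/+) conceptuses and mutant (-/-) conceptuses with a deletion of exon 6, genotyped from the embryonic tail. The 4 groups were embryos and yolk sacs of each genotype, with 2 RNA samples per group and 2 arrays per RNA sample, so n = 2 per group. The labels call the mutants growth retarded with abnormal vascularization, and the deletion is in every cell, so a mutant sample may differ in stage and in cell makeup as well as in genotype. Within a genotype, an embryo and a yolk sac that share a number came from 1 conceptus.

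Prostacyclin is made from arachidonic acid by a cyclooxygenase (Ptgs1 or Ptgs2) and then prostacyclin synthase (Ptgis), while Ptges turns the same cyclooxygenase product into prostaglandin E2. Prostacyclin, nitric oxide from the endothelial synthase Nos3, and the peptide adrenomedullin (Adm) relax vessels. Endothelin 1 (Edn1), cut from its precursor by Ece1, constricts vessels through the receptor Ednra, and Ednrb on endothelium answers with nitric oxide and prostacyclin. In the mouse embryo, Edn1 and Ednra pattern the pharyngeal arches, Ednrb is needed by neural crest cells that form melanocytes and enteric neurons, and loss of Adm causes lethal oedema.

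Edn1 and Adm are both known targets of the hypoxia-inducible factors, which bind a core written ACGTG or GCGTG. The RefSeq promoter windows of these 2 genes (GRCm38.p6, 250 bases before to 50 bases after the start, plus strand) are shown to give the sequence that lies at their starts, with matches to the core in capitals. The Edn1 window lies at chr13:42301226-42301525 and the Adm window at chr7:110627407-110627706.
Edn1: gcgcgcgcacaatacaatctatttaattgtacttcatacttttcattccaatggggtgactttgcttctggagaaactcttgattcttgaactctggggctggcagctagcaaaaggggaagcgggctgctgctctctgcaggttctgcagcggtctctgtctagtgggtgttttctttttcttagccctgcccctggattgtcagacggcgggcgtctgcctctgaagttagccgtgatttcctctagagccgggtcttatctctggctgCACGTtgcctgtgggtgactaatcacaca
Adm: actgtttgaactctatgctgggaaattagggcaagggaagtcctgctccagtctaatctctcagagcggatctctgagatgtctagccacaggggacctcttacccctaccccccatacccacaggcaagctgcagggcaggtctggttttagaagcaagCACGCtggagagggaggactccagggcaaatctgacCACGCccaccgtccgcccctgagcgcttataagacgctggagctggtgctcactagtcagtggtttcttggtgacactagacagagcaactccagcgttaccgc
The Edn1 window held 1 match, to ACGTG on the reverse strand (CACGT as printed), at bases 22 to 26 after the start. The Adm window held 2 matches, both to GCGTG on the reverse strand (CACGC as printed), at bases -90 to -86 and -54 to -50. Of all 32851 windows, 19.6% held ACGTG on either strand, 32.4% held GCGTG and 43.8% held at least 1 of them. Among the other members with a window, Ptgs2, Ptges, Ece1 and Ednrb also held matches, and Ptgs1 and Ednra held 0. A match is a description of the letters and not a binding site.

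Between 17382 and 19576 probes per array counted as detected. Signal was dimmer on mutant yolk sac arrays, where the 75th percentile was 67 to 74.8 against 97.6 to 140.7 on wild-type yolk sac arrays and 108.7 to 125.5 on embryo arrays. All levels below are therefore quantile-normalized log2 values, with the deposited signal beside them. The targeted gene was read by 1 bright probe, whose position relative to exon 6 is not given in the sources used here, so it need not measure the deleted part. Among yolk sacs its signal was 759 and 1244 for wild types against 234 and 278 for mutants. Among embryos it was 331 and 391 for wild types, 270.4 for mutant embryo 1 and 664 for the library labelled mutant embryo 2, so that library went against its label. Embryo genotype values of the tested members are given with and without it. Repeat arrays of an RNA sample differed by a median of 0.10 (log2) over the 7 members, and by at most 0.41, for Ednrb in mutant yolk sac 2.

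**Figure D1:**
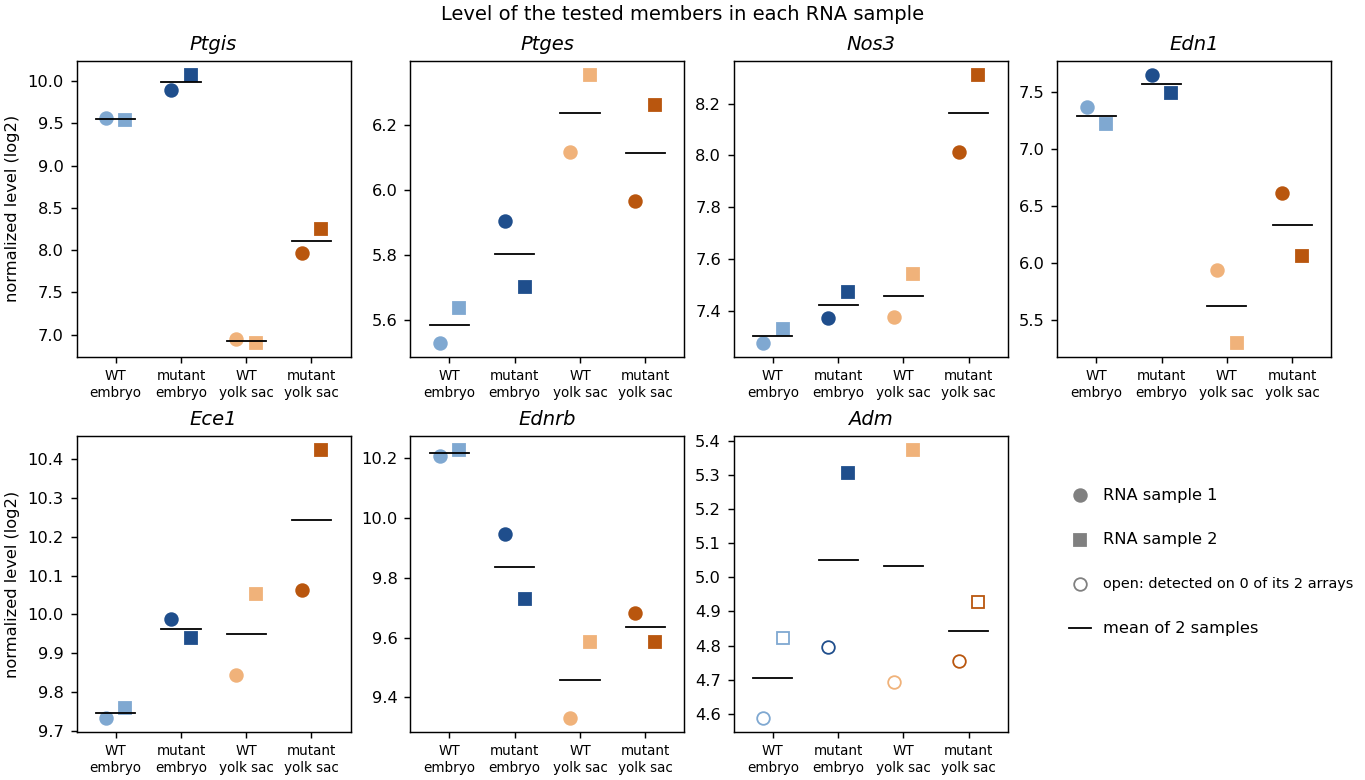
Normalized level (log2, y axis) of each of the 7 tested members in the 8 RNA samples, by group (x axis), with the group mean as a line; circles are sample 1 and squares sample 2, open where the probe was detected on neither array, and each panel has its own scale. Ptgis and Edn1 were lower in every yolk sac than in every embryo, Nos3 was highest in the 2 mutant yolk sacs at this scaling, and Adm was detected in only 2 of the 8 samples.

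Ptgis was the member with the largest differences. Its signal was 754 and 729.8 for wild types against 945 and 1146 for mutants (the second value from the library labelled mutant embryo 2) among embryos, and 102.5 and 124 against 163 and 222 among yolk sacs. No groups overlapped, in signal or in normalized level, and the order was mutant embryo, wild-type embryo, mutant yolk sac, wild-type yolk sac. Normalized levels were 9.55 ± 0.02 for wild types against 9.99 ± 0.13 for mutants among embryos, and 6.92 ± 0.04 against 8.11 ± 0.19 among yolk sacs (log2, mean ± SD, n = 2). In wild types Ptgis was lower in yolk sac than in embryo by 6.16-fold (log2 difference -2.62, SE 0.12, limma adjusted p = 1.88e-06). In mutants the same tissue difference was 3.69-fold (log2 -1.88, SE 0.12, adjusted p = 9.79e-06). Tissue tests, of this and every other member, use the yolk sac samples whose values chose the members, so they are not independent of that choice.

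Between genotypes, Ptgis was 2.27-fold higher in mutant than in wild-type yolk sacs (log2 difference 1.18, 95% interval 0.90 to 1.46). In embryos it was 1.36-fold higher in mutants (log2 0.44, SE 0.12, unadjusted p = 0.00696, adjusted p = 0.154), which did not pass the threshold of 0.05 on the adjusted p. Leaving out the library labelled mutant embryo 2 gave an embryo difference of 0.35 (adjusted p = 0.787). The yolk sac difference exceeded the embryo difference by 0.74 (log2, 95% interval 0.35 to 1.14), a description since its yolk sac side chose the member. The yolk sac difference was 0.75 when arrays were not scaled to each other, and 1.25 relative to the median of all genes under that setting, so it kept its sign either way.

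Ptges, the inducible prostaglandin E synthase, was dim. The signal of its tested probe was 38.85 and 42.4 for wild types against 50.3 and 46.2 for mutants among embryos, and 49.7 and 77.85 against 29.7 and 42.2 among yolk sacs. Ptges rose from embryo to yolk sac in wild types by 1.57-fold (log2 0.65, SE 0.14, adjusted p = 0.00433), the opposite direction to Ptgis, a call that was lost without scaling between arrays (0.64, adjusted p = 0.0599). In mutants the tissue difference was 0.31 (log2, adjusted p = 0.0865). It turned to -0.45 when arrays were not scaled to each other, where the mutant yolk sac signals lay below the mutant embryo signals. Relative to the median of all genes it was 0.09 under that setting. The genotype difference was -0.12 in yolk sac, where the normalized groups overlapped while the mutant signals lay below the wild-type signals, and 0.22 in embryo (adjusted p = 0.613), or 0.32 with the library labelled mutant embryo 2 left out.

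The second detected Ptges probe, at signals of 21.6 to 28.85, did not repeat this pattern. It gave 0.23 between wild-type tissues (adjusted p = 0.123) and 0.73 between mutant tissues (adjusted p = 0.00110), and its yolk sac genotype difference was 0.50. The 2 probes thus passed between tissues in different genotypes.

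The cyclooxygenase step could not be read. Both Ptgs2 probes stayed between -10.65 and 8.55 in signal in all 8 samples and were detected on 0 of 16 arrays, against detection signals of 10 to 28.8. The prostacyclin receptor Ptgir and the prostaglandin receptors Ptger2, Ptger3, Ptgfr and Ptgdr were likewise detected on 0 arrays.

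Of 20 other genes of prostanoid synthesis, breakdown and signalling, 12 were tested. None passed in embryos between genotypes (0 of 12, and 0 at an unadjusted p under 0.05, beside 12.5% of all genes). The median difference was -0.07 against 0.00 for all genes. Between wild-type tissues 8 were higher in yolk sac and 2 lower, while 33.2% of all genes passed as higher and 36.2% as lower. Where a probe was not well above background on any array of the dimmer group, the difference is only bounded, and a lower bound in normalized level is given in its place ("at least"), here and for the lists below. Of the higher genes, the prostaglandin transporter Slco2a1 was at least 6.97-fold higher in yolk sac (adjusted p = 1.48e-05) and thromboxane synthase Tbxas1 at least 2.34-fold (adjusted p = 1.18e-05). The transporter Abcc4 (log2 3.41, adjusted p = 1.82e-05) and the thromboxane receptor Tbxa2r (1.01, adjusted p = 0.00230) were detected on all arrays. The catabolic enzyme Hpgd was also higher (1.40, adjusted p = 0.00167), with 1 of 4 wild-type embryo arrays detected. Ptger4, the one prostaglandin E receptor that was tested, did not pass (adjusted p = 0.388) and was detected on 1 of these 8 arrays, and Ppard, a nuclear receptor reported to bind prostacyclin, was lower in yolk sac (-0.66, adjusted p = 0.000619). Beside the lower Ptgis, the yolk sac thus had higher levels of these transporters, of Hpgd and of both thromboxane genes.

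Nos3 was read by 3 detected probes, and they moved together. The signal of the tested probe was 157 and 159 for wild types against 160.25 and 190.25 for mutants among embryos, and 143 and 213.5 against 167 and 234 among yolk sacs. As signal, mutant and wild-type yolk sacs overlapped; as normalized level they did not, at 7.46 ± 0.12 in wild types and 8.16 ± 0.21 in mutants (log2, SD, n = 2). The yolk sac genotype difference was 1.63-fold (log2 0.70, 95% interval 0.41 to 1.00), and the other 2 detected probes gave 0.68 and 0.78. The difference of the tested probe was 0.40 with median scaling and 0.19 without scaling between arrays, or 0.63 and 0.68 relative to the median of all genes. The remaining Nos3 probe was detected on 0 arrays.

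In embryos the Nos3 levels lay close together, at 7.30 ± 0.04 in wild types and 7.42 ± 0.07 in mutants (log2, SD, n = 2). Their difference was 0.12 (95% interval -0.17 to 0.41, adjusted p = 0.787). Leaving out the library labelled mutant embryo 2 gave 0.07. The yolk sac difference exceeded the embryo difference by 0.58 (95% interval 0.17 to 1.00), again only a description since its yolk sac side chose the member. Between tissues, Nos3 did not pass in wild types (log2 0.16, adjusted p = 0.297) and was higher in yolk sac in mutants by 1.67-fold (log2 0.74, SE 0.13, adjusted p = 0.00124). That test reuses the mutant yolk sac levels for which Nos3 was chosen and is no independent support. The mutant tissue call depended on scaling. It was lost when arrays were brought to a common median (0.46, adjusted p = 0.0618) or not scaled at all (0.18, adjusted p = 0.536), and relative to the median of all genes the difference was 0.67 and 0.72 under these settings.

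Endothelial markers, like Nos3, had a higher normalized level in mutant than in wild-type yolk sacs. Of 17 endothelial genes, 16 were tested (Erg was detected on 0 arrays), and among yolk sacs their mean log2 level was 8.08 to 8.14 for wild types against 8.48 to 8.51 for mutants. Among embryos it was 7.90 to 7.91 against 7.88 to 7.90. Their summed signal overlapped between genotypes in yolk sac, at 6441 to 8970 for wild types against 6669 to 7678 for mutants. Of the 16, 2 passed in yolk sac, both higher in mutants (1.26% of all genes passed there), and 14 lay above 0, with a median of 0.38. With the replicate block, and with first arrays only, 0 of 16 passed by limma. In the fit without the block 9 had an unadjusted p under 0.05, beside 20.9% of all genes at that p. Without scaling between arrays the median was -0.14, against -0.50 for all genes, and 2 fell. Egfl7 and Esam, the brightest markers of the list, differed by 0.47 (adjusted p = 0.118) and 0.34 (adjusted p = 0.0909) in yolk sac. Between wild-type tissues 10 of 16 passed as higher in yolk sac and 1 as lower (median 0.38), against 33.2% and 36.2% of all genes. Nos3 did not pass there (0.16). Between mutant tissues 12 were higher and 1 lower (median 0.58), against 32.8% and 36.5% of all genes, with Nos3 at 0.74. The part of endothelial content in the Nos3 difference was not tested. In whole tissue, more cells of a type and more RNA per cell cannot be told apart, here and in every comparison below.

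**Figure D2:**
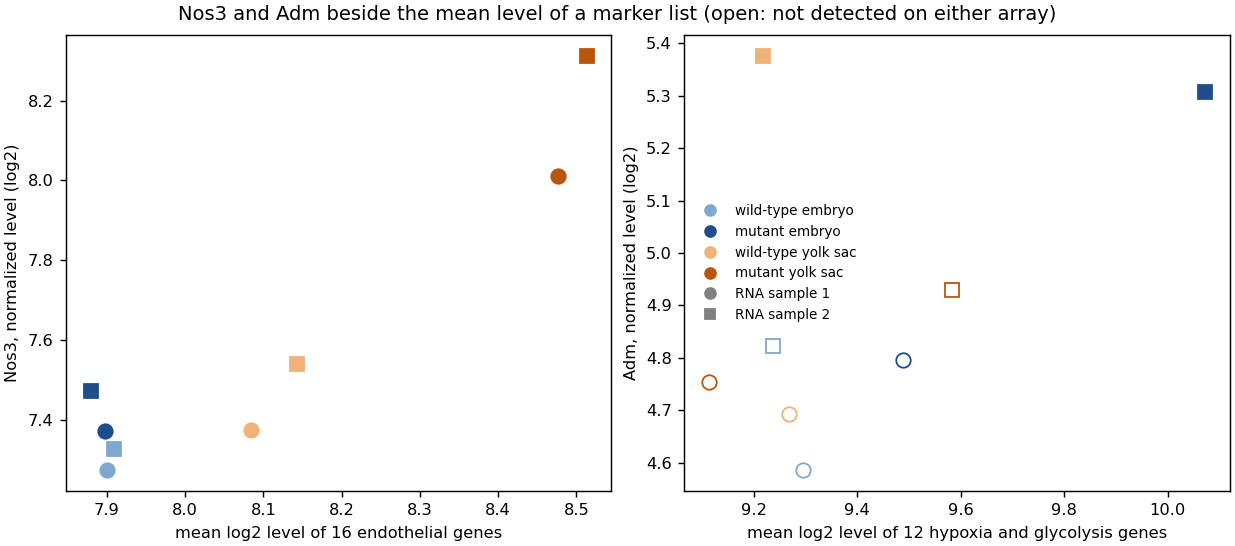
Left, the normalized level of Nos3 (log2, y axis) against the mean log2 level of 16 endothelial genes (x axis); right, Adm against the mean log2 level of 12 hypoxia and glycolysis genes. Each point is 1 RNA sample, coloured by group, with circles for sample 1 and squares for sample 2, and open points were detected on neither array; the 2 mutant yolk sacs were highest on both axes at left, and the 2 samples with detected Adm lay at 9.22 and 10.07 on the x axis at right.

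Of 26 other genes of nitric oxide synthesis and cyclic GMP signalling, 20 were tested. In embryos 0 of 20 passed between genotypes by limma, and 4 had an unadjusted p under 0.05, beside 12.5% of all genes at that p. In yolk sac 0 of 20 passed and 6 had an unadjusted p under 0.05, beside 20.9% of all genes at that p. Cav1, the caveolin that binds and inhibits Nos3, was at 0.55 in yolk sac (adjusted p = 0.0767) and at -0.56 in embryo (adjusted p = 0.0884), or -0.43 in embryo with the library labelled mutant embryo 2 left out. Between wild-type tissues 12 were higher in yolk sac and 6 lower, against 33.2% and 36.2% of all genes. The higher ones included Nostrin, which moves Nos3 from the membrane (log2 4.62, adjusted p = 0.000185, with 2 of 4 wild-type embryo arrays detected). Ass1, which with Asl recycles citrulline to the substrate arginine, was also higher (4.55, adjusted p = 0.000468). The 2 wild-type embryos lay far apart for both, at signals of 20.4 and 126.4 for Nostrin and 109.9 and 593.5 for Ass1. The subunits of soluble guanylate cyclase, the nitric oxide receptor, moved in both directions. Gucy1a1 (0.84, adjusted p = 0.000753) and Gucy1b1 (1.01, adjusted p = 0.00142) were higher in yolk sac, and Gucy1a2, the other alpha subunit, was lower (-1.09, adjusted p = 0.000267). Nos1 was detected on 0 arrays and Nos2 on 2, so Nos3 was the one nitric oxide synthase with a measurable signal.

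The flow-responsive regulators of endothelium, which include the Nos3 activators Klf2 and Klf4, were all 8 tested. None passed between genotypes in yolk sac (1 at an unadjusted p under 0.05) or in embryo (0), beside 20.9% and 12.5% of all genes at that p. Klf2 differed by 0.08 in yolk sac (adjusted p = 0.917) and by -0.46 in embryo (adjusted p = 0.616), or -0.21 in embryo with the library labelled mutant embryo 2 left out. Klf4 differed by 0.02 in yolk sac (adjusted p = 0.964). In embryo it was detected on 0 arrays of either genotype, so its value there (0.01, adjusted p = 0.993) compares background with background. Between wild-type tissues 5 of 8 were higher in yolk sac and 1 lower, against 33.2% and 36.2% of all genes, and the counts were 3 and 0 without wild-type embryo 1, wild-type embryo 2 or wild-type yolk sac 2.

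Edn1 was brighter in embryos in every sample. Its signal was 167 and 147 for wild types against 195 and 192 for mutants among embryos, and 42.3 and 26.65 against 53.5 and 34.95 among yolk sacs. All 16 arrays detected it, and no embryo overlapped a yolk sac. Edn1 was 3.18-fold lower in yolk sac than in embryo in wild types (log2 -1.67, SE 0.24, adjusted p = 0.000540) and 2.35-fold lower in mutants (log2 -1.23, SE 0.24, adjusted p = 0.00266).

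Between genotypes the Edn1 samples of a group spread widely in yolk sac, with levels of 5.94 and 5.30 in wild types and 6.61 and 6.06 in mutants. The difference was 1.64-fold (log2 0.72, 95% interval 0.15 to 1.28). It was 1.04 without wild-type yolk sac 1, 0.39 without wild-type yolk sac 2 and 0.44 without mutant yolk sac 1. It was 0.46 with an offset of 50 and 0.36 without scaling between arrays. In embryos the levels were 7.36 and 7.22 in wild types and 7.65 and 7.49 in mutants, a difference of 0.28 (SE 0.24, adjusted p = 0.725), or 0.36 when the library labelled mutant embryo 2 was left out. The yolk sac difference exceeded the embryo difference by 0.44 (95% interval -0.37 to 1.24), a description since its yolk sac side chose the member.

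Ece1, the protease that releases active endothelin, was bright in both tissues. Its signal was 853 and 852 for wild types against 1005 and 1040.9 for mutants among embryos, and 889 and 1377 against 813 and 1158 among yolk sacs. The mutant and wild-type yolk sac signals overlapped, and so did mutant yolk sacs and mutant embryos. No tested Ece1 difference passed. The difference was 0.22 between embryo genotypes (adjusted p = 0.605, and 0.24 with the library labelled mutant embryo 2 left out), 0.20 between wild-type tissues (adjusted p = 0.222) and 0.28 between mutant tissues (adjusted p = 0.105). Between yolk sac genotypes it was 0.30 (95% interval -0.03 to 0.62). Without scaling between arrays it turned to -0.19, or 0.31 relative to the median of all genes. A second, dimmer probe gave -0.01 between embryo genotypes and 0.33 between mutant tissues (adjusted p = 0.0178).

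For the tested Ednrb probe the mutants lay above the wild types in yolk sac and below them in embryo, without overlap in normalized level in either tissue. Its signal was 1183 and 1172 for wild types against 975.5 and 903 for mutants among embryos, and 619.75 and 998 against 607 and 636 among yolk sacs. In embryos both mutants lay below both wild types, with a log2 difference of -0.38 (SE 0.12, unadjusted p = 0.0164, adjusted p = 0.240), which did not pass. The difference was -0.27 (adjusted p = 0.989) with the library labelled mutant embryo 2 left out. In yolk sac the normalized mutant levels (9.68 and 9.59) lay at or just above the wild-type levels (9.33 and 9.59), a difference of 0.18 (95% interval -0.11 to 0.46). That yolk sac direction turned to -0.11 with median scaling and to -0.35 without scaling, or 0.12 and 0.15 relative to the median of all genes.

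Ednrb was lower in yolk sac than in embryo in wild types by 1.69-fold (log2 -0.76, SE 0.12, adjusted p = 0.000953), a call lost without scaling between arrays (-0.58, adjusted p = 0.0539), and in mutants by 1.15-fold (log2 -0.20, adjusted p = 0.175), which did not pass. A second Ednrb probe, at signals of 93.15 to 273, gave -0.71 in wild types (adjusted p = 0.00151) and -0.50 in mutants (adjusted p = 0.00870). The same probe gave -0.24 between embryo genotypes and -0.03 between yolk sac genotypes. The dimmest Ednrb probe, detected on 11 of 16 arrays at signals of 14.45 to 28.8, gave the opposite sign in the embryo and tissue comparisons. Neural crest markers were lower in yolk sac too: 3 of 6 were tested, with a median tissue difference of -4.08 in wild types and -4.09 in mutants. Ednrb differed by -0.76 and -0.20. The mean log2 level of the 3 markers was 9.48 to 9.84 in embryos and 6.32 to 6.57 in yolk sacs. Sox10 was detected on 0 yolk sac arrays and was at least 19.5-fold lower there in wild types and 23.9-fold in mutants. Tfap2a was detected on 1 of 4 wild-type and 3 of 4 mutant yolk sac arrays. The medians and the yolk sac means thus rest partly on background. The brightest marker, Ets1, differed by -0.51 and -0.26 and is also expressed in endothelium. The part of neural crest content in the Ednrb difference was not tested.

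**Figure D3:**
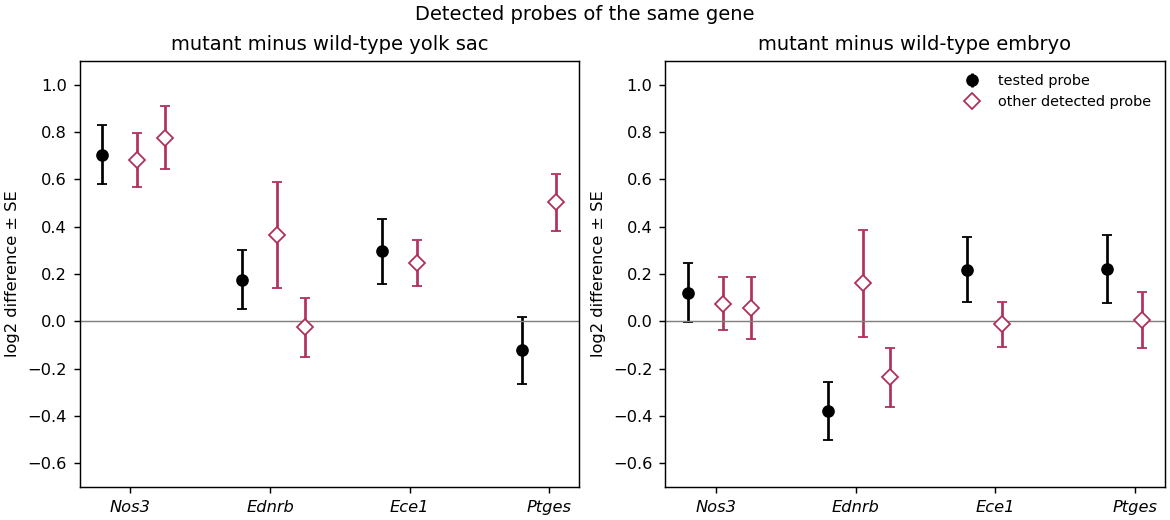
Log2 difference ± SE (y axis) between mutant and wild-type yolk sacs (left) and embryos (right) for each detected probe of the 4 members with more than 1, with the tested probe as a filled circle and the others as open diamonds. The 3 Nos3 probes lay at 0.68 to 0.78 in yolk sac and 0.06 to 0.12 in embryo. The probes of Ednrb and of Ptges lay on both sides of 0 in yolk sac. Without scaling between arrays the tested Ednrb and Ece1 probes fell below 0 there, or lay at 0.15 and 0.31 relative to the median of all genes.

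Of 16 other genes of the endothelin system (ligands, proteases, G proteins and known targets of receptor A), 12 were tested. In embryos 0 of 12 passed between genotypes, and 4 had an unadjusted p under 0.05, beside 12.5% of all genes at that p. Edn2, Edn3, the protease Ecel1 and the target Dlx5 were detected on 0 arrays, so Edn1 was the one endothelin ligand with a measurable signal. Between wild-type tissues 2 were higher in yolk sac and 6 lower, against 33.2% and 36.2% of all genes, and 1 was higher with any 1 of the 4 wild-type samples left out. The higher ones were the Ednra target Hand1 (log2 2.10, adjusted p = 7.19e-05) and the protease Kel (1.49, adjusted p = 0.0194). Hand1 was detected on 1 of 4 wild-type embryo arrays and is also on the list of decidua and trophoblast genes described below. The part of those cells in its difference was not tested. Among the lower Ednra targets, which mark pharyngeal arch mesenchyme, Dlx6 was at least 2.97-fold lower in yolk sac (adjusted p = 2.79e-06) and Gsc at least 1.14-fold (adjusted p = 0.000616), while Dlx3 was lower by a log2 difference of -2.33 (adjusted p = 6.79e-07, with 1 of 4 wild-type yolk sac arrays detected). Mme, a protease that degrades endothelin, was at least 2.50-fold lower (adjusted p = 4.69e-06), and Gnaq, the G protein downstream of Ednra, was lower too (-1.49, adjusted p = 2.52e-05). Hand2, another Ednra target, did not pass (0.22, adjusted p = 0.292), and Ece2, a second converting enzyme, did not pass (-0.02, adjusted p = 0.848).

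Adm was close to background in most samples. Its signal was 5 and 14.25 for wild types against 12.15 and 30.65 for mutants among embryos, and 6.7 and 28.9 against 5.7 and 9.25 among yolk sacs. Only the library labelled mutant embryo 2 and wild-type yolk sac 2 were detected, each on both arrays, which makes 4 of 16 arrays. The groups overlapped in both genotype comparisons and in both tissue comparisons of normalized level. No fold is given, because the mean of each brighter group did not exceed the bound that background set on the dimmer one.

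The tested Adm differences did not pass. The embryo genotype difference was 0.35 (adjusted p = 0.657), falling to 0.09 with the library labelled mutant embryo 2 left out. Between tissues it was 0.33 in wild types (adjusted p = 0.269), -0.01 without wild-type yolk sac 2 and 0.67 without wild-type yolk sac 1 (adjusted p = 0.0406). In mutants it was -0.21 (adjusted p = 0.474), or 0.05 with that embryo left out. Each of these values thus depended on a single sample.

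The mean level of hypoxia and glycolysis genes was highest in the library labelled mutant embryo 2. Normalized Adm was highest in wild-type yolk sac 2 (5.38), above that library (5.31). Of 16 such genes, 12 were tested, with a mean log2 level of 9.24 and 9.29 for wild-type embryos, 9.49 for mutant embryo 1 and 10.07 for that library. Among yolk sacs it was 9.22 to 9.27 for wild types against 9.11 to 9.58 for mutants. All 12 lay above 0 between embryo genotypes (median 0.53), of which 1, P4ha2, rose (log2 0.68, adjusted p = 0.0461). With that library left out, 10 of 12 lay above 0 (median 0.23), 0 passed, and P4ha2 was at 0.54 (adjusted p = 0.327). Ldha and Slc2a1, the brightest of the list, differed by 0.19 (adjusted p = 0.615) and 0.57 (adjusted p = 0.202), or 0.09 and 0.36 without it. Wild-type yolk sac 2, the other sample with detected Adm, had a list mean of 9.22. The part of hypoxia in the Adm signal was not tested.

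Of 11 other genes of the system, 6 were tested. Between genotypes 0 of 6 passed in embryo (0 at an unadjusted p under 0.05) or in yolk sac (3 at an unadjusted p under 0.05). Of all genes, 12.5% in embryo and 20.9% in yolk sac had such an unadjusted p. Between wild-type tissues 3 were higher in yolk sac and 2 lower, against 33.2% and 36.2% of all genes. The receptor Calcrl was detected on all yolk sac arrays and on 0 embryo arrays, so that wild-type yolk sac exceeded wild-type embryo at least 1.35-fold (adjusted p = 0.000165). Ramp2, which makes Calcrl an adrenomedullin receptor, was detected on all arrays and was higher too (log2 0.44, adjusted p = 0.0192), as was Ramp1 (0.68, adjusted p = 0.00389, with 1 of 4 wild-type embryo arrays detected). Ramp3, the other partner for adrenomedullin, was at least 1.83-fold lower in wild-type yolk sac (adjusted p = 0.000130), as it was detected on 0 arrays there, and Pam, the enzyme that amidates the peptide, was lower (-0.87, adjusted p = 0.0185). The related ligands Adm2, Calcb and Iapp were detected on 0 arrays.

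Across the 7 tested members, none passed in embryos between genotypes by limma (0 of 7), while 2.13% of all genes did (0.609% higher and 1.52% lower). Unadjusted p-values under 0.05 were found for 2 members, Ptgis and Ednrb, and for 1413 of 11334 genes. The groups did not overlap for 6 of 7 members, 5 higher in mutants and 1 lower, where 51.9% of all genes had groups that did not overlap (25.2% higher and 26.7% lower). The median embryo difference was 0.22 against 0.00 for all genes. In yolk sac 5 of 7 members had groups that did not overlap, all 5 higher in mutants, beside a background of 47.9% in either direction, 23.8% higher and 24.1% lower. Since the yolk sac values chose the members, nothing is read from that count. Of those 5, Ptgis, Nos3 and Edn1 stayed above 0 under each scaling, while Ece1 turned to -0.19 without scaling and Ednrb to -0.11 with median scaling. Relative to the median of all genes, Ece1 was at 0.31 and Ednrb at 0.12 under these settings.

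**Figure D4:**
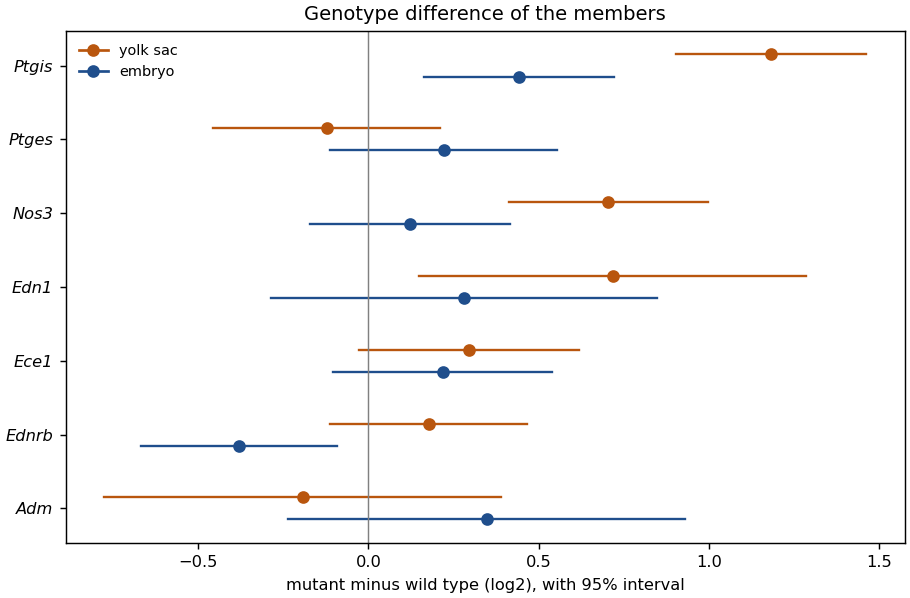
Mutant minus wild-type difference (log2, x axis) of the 7 tested members (y axis) in yolk sac (orange) and embryo (blue); points are estimates from 2 samples per group and bars are 95% intervals. Yolk sac values ran from -0.19 (Adm) to 1.18 (Ptgis) and embryo values from -0.38 (Ednrb) to 0.44 (Ptgis). Without scaling between arrays the yolk sac values of Ece1 and Ednrb fell below 0, or lay at 0.31 and 0.15 relative to the median of all genes.

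Between tissues, 4 of 7 members passed in wild types (Ptgis, Edn1 and Ednrb lower in yolk sac, Ptges higher), where 69.5% of all genes passed. In mutants 3 of 7 passed (Ptgis and Edn1 lower, Nos3 higher), where 69.3% did (32.8% higher and 36.5% lower). The groups did not overlap for 6 of 7 members in each genotype, 3 higher in yolk sac and 3 lower, against 86.8% of all genes in wild types (42% higher, 44.8% lower) and 85% in mutants (40.2% higher, 44.8% lower). The shares that passed were below the background, so passing between tissues did not set the members apart. Without mutant yolk sac 1, 5 members passed between mutant tissues, with Ece1 and Ptges added. The tissues differed widely in cell makeup: the mean log2 level of 12 visceral endoderm genes, led by Ttr and Apoa1, was 12.0 to 12.3 in yolk sacs and 5.29 to 9.16 in embryos. Wild-type embryo 1 (5.29) and wild-type embryo 2 (9.16) marked the ends of the embryo range. The same 4 members passed between wild-type tissues with either of these embryos left out.

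**Figure D5:**
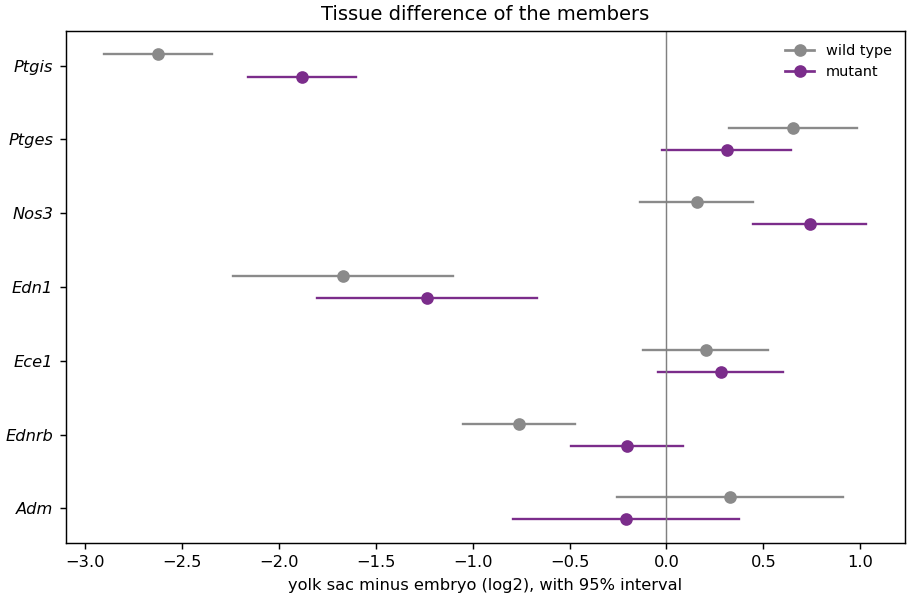
Yolk sac minus embryo difference (log2, x axis) of the 7 tested members (y axis) in wild types (grey) and mutants (purple); points are estimates from 2 samples per group and bars are 95% intervals. Ptgis (-2.62 and -1.88) and Edn1 (-1.67 and -1.23) lay far below 0 in both genotypes. Without scaling between arrays the mutant values of Ece1 and Ptges fell below 0, or lay at 0.46 and 0.09 relative to the median of all genes.

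Other cell types of the samples varied too, beside the member values they accompany. Primitive erythroid genes, led by Hbb-bh1 and Hbb-y, had a mean log2 level of 12.1 to 12.2 for wild-type embryos, 11.9 for mutant embryo 1 and 10.7 for the library labelled mutant embryo 2. Decidua and trophoblast genes, led by Prl2c2 and Plac1, were tested for 4 of 8. Among yolk sacs their means were 7.27 and 8.71 for wild types against 8.98 and 8.93 for mutants. Both mutants lay above both wild types, as for Ptgis, Nos3, Edn1, Ece1 and Ednrb. Their summed signals overlapped, at 607 to 2745 against 2034 to 2170. In both mutant yolk sacs, means lay lower for erythroid genes (12.50 to 12.73 against 12.90 to 12.92) and visceral endoderm genes (12.01 to 12.05 against 12.26 to 12.30). Smooth muscle genes, led by Acta2 and Des, were tested for 4 of 7 (Cnn1 and Myh11 were detected on 0 arrays) and had means of 7.62 to 7.73 for wild types against 7.56 to 7.91 for mutants among yolk sacs. The part of these cells in any member's difference was not tested.

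The genes whose log2 level followed a member most closely over the 8 samples were taken by Pearson's r, as a description, since all 8 samples share the tissue and genotype groups. For Ptgis these were Ptges3l (0.994), Pabpn1 (0.993) and Ccdc127 (0.993), and 2014 genes had an r above 0.9. For Edn1 they were Lsm3 (0.990), Hmgn1 (0.990) and Mterf1a (0.989), with 1241 genes above 0.9. The large numbers go with genes that differ between embryo and yolk sac as these members do. For Nos3 the closest were Catsperz (0.996), Mdm2 (0.991) and E030030I06Rik (0.984), with 94 above 0.9, and for Adm Cir1 (0.960), Uck1 (0.956) and Zfp235 (0.939), with 4.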

How the data were processed

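Gene expression was measured in 8 RNA samples on 16 arrays. The authors deposited probe intensity on a linear scale, background subtracted and not scaled between arrays (28.1 to 32.7% of signals per array were below 0), and the software is not given in the sources used here. The deposited table also holds a detection score from 0 to 1 per probe, which did not follow the signals beside it (Spearman correlation 0.00157 to 0.0106). Scores were matched to signals by rank within each array, with the detection p taken as 1 minus the score, an assumption the sources do not settle. The authors' deposited log2 values were used only as an alternative within a tissue: they are centred within each tissue, and what their shift per array was based on stays unknown.

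Signals were processed with neqc in limma 3.58.1 under R 4.3.3 (normal-exponential correction, offset 16, quantile normalization, log2), and the log2 values of each sample's 2 arrays were averaged. Of 45281 probes, 34885 carried 1 gene symbol, 18 several and 10378 none. Probes detected (p under 0.05) on at least 4 of 16 arrays were kept (21193), and the brightest probe stood for a gene, which gave 11334 genes. A mean per group was fitted (lmFit, eBayes) over 8 samples with 4 residual and 3.35 prior degrees of freedom. P-values were two-sided and Benjamini-Hochberg adjusted over all genes. The number of samples limits precision, and the p-values measure only the spread between these samples. The procedure was tested on simulated data.

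The members and gene lists were chosen with earlier results of these data known. The text names all members; of each pathway list the genes past the threshold between embryo genotypes and those acting directly on a member's product; the 2 brightest genes of each marker list; and the 3 genes most like Ptgis, Nos3, Edn1 and Adm. P4ha2, Hand1, Hand2, Gsc, Dlx3, Sox10, Erg, Cnn1 and Myh11 and the genes listed as not detected were named after their values were seen. Promoter sequences are RefSeq's (GRCm38.p6), with a window for 8 of the 10 members. Embryo and yolk sac of the same number share a conceptus within a genotype: their deviations from the group means correlated at 0.04 in wild types and 0.22 in mutants. Alternatives covered background correction, scaling, filter, probe, arrays, samples and blocks, and the values without scaling between arrays were added after seeing the data.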

Additional observations from a re-analysis of the deposited data

Results flagged for a closer look

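By its tested probe, Ednrb moved in opposite directions in the 2 tissues: its mutant minus wild-type log2 difference was 0.18 in yolk sac and -0.38 in embryo. Both mutant yolk sacs lay above both wild-type yolk sacs and both mutant embryos below both wild-type embryos. The gap of 0.56 (SE 0.17) was not tested, because the yolk sac side was known when the gene was chosen. The yolk sac levels of the second samples were 9.59 in both genotypes. The yolk sac direction turned with median scaling (-0.11), without scaling between arrays (-0.35) and with a second probe (-0.03). That probe gave -0.24 in embryo, and the dimmest probe gave 0.36 in yolk sac and 0.16 in embryo. Neither of these probes thus moved in opposite directions. The embryo difference of the tested probe was -0.27 with the library labelled mutant embryo 2 left out. Relative to the median of all genes, the yolk sac difference was 0.12 with median scaling and 0.15 without scaling.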

How the results depend on the processing

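With 2 samples per group, embryo differences of the size seen here (0.12 to 0.44) did not pass, and no member passed between embryo genotypes under any alternative. Single values were those of the members and the medians of all genes. Of these, 609 kept their direction and side of the threshold, or moved by less than the spread (medians by at most 0.1). A further 72 moved by more, 8 came to pass the threshold, 5 no longer passed it and 11 turned direction. An alternative kept only the embryos named in the series design, wild-type embryo 2 and mutant embryo 1. Each embryo group then held 1 sample. Values that turned direction were, between embryo genotypes, Ptges with second arrays (-0.00175), Adm with the embryos named in the series design (-0.0261), Ece1 with its other probe (-0.0134) and Ednrb with its dimmest probe (0.161). Between wild-type tissues these were Ednrb with that probe (0.177) and Adm without wild-type yolk sac 2 (-0.0117, against 0.671 without wild-type yolk sac 1). Between mutant tissues they were Ednrb with that probe (0.381), Adm without the library labelled mutant embryo 2 or with the design's embryos (0.0450 each, against -0.465 without mutant embryo 1), and Ece1 (-0.0783) and Ptges (-0.446) without scaling between arrays, a setting added after seeing the data. Relative to the median of all genes, Ece1 and Ptges were at 0.46 and 0.09 there. Yolk sac genotype differences also changed sign, for Ednrb in 3 of 18 settings, Ptges in 2 of 17, Ece1 in 1 of 17 and Adm in 1 of 15. The gap between tissues changed sign for Ece1 in 5 of 21, Ednrb in 1 of 22 and Ptges in 1 of 21. The cause was not tested.

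The median yolk sac difference of the members, 0.30, was 0.0450 with median scaling, 0.465 with the authors' values, 0.500 for genes detected on 8 arrays and -0.191 without scaling, and ran from 0.190 to 0.443 with 1 sample left out. The median of all genes under these scalings was -0.23 (median), 0.10 (authors' values) and -0.50 (none). The median gap between tissues in the genotype difference, 0.44, was 0.568 with a floor of 16, 0.228 with an offset of 50, 0.168 with median scaling, 0.580 with the authors' values, 0.257 without the filter, 0.284 with the design's embryos and -0.0172 without scaling, and ran from 0.183 to 0.515 with 1 sample left out. Members passing between wild-type tissues fell to 2 (Ptgis and Edn1) without scaling and were 4 or 5 with 1 sample left out, and between mutant tissues 3 to 5, with 5 without mutant yolk sac 1. Without scaling, 3 members passed between mutant tissues, with Ednrb (-0.60, adjusted p = 0.0419) in place of Nos3.

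The replicate block left 0, 4 and 3 members (embryo genotype, wild-type tissues, mutant tissues) and changed no other call; samples that share only a number correlated at 0.19 in embryos and 0.17 in yolk sacs. Conceptus as a random block (correlation 0.0481) gave the same counts. Of all genes, 241 passed between embryo genotypes, but 24 with the design's embryos or only the groups compared, 0 with the authors' values, 143 with median scaling, 138 without scaling, 128 with second arrays and 51 without the library labelled mutant embryo 2 (61 without wild-type embryo 1, 133 without wild-type embryo 2). Between yolk sac genotypes 143 genes passed, but 0 with the replicate block, only the groups compared or first arrays, 55 with the authors' values, 215 without the filter, 241 with an offset of 50, 336 with a floor of 16, 602 with median scaling, 3490 without scaling, and 0 to 110 with 1 yolk sac left out.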
